A study of Mus musculus with 8 samples.

Results

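The Hox genes encode homeodomain transcription factors that give cells of the embryo their position along the head-to-tail axis. In the mouse they lie in 4 clusters, *Hoxa* on chromosome 6, *Hoxb* on 11, *Hoxc* on 15 and *Hoxd* on 2, and are numbered by paralog group within a cluster. Genes with low numbers are transcribed from the hindbrain backward, and genes with higher numbers begin at successively more caudal levels of the hindbrain, neck and trunk, so that forebrain and midbrain lack Hox transcripts. The Hox genes were followed here in E14.5 mouse brains. Members were chosen by gene symbol, as protein-coding genes named *Hox* with a cluster letter and a number, which gave 28 of the 33971 genes counted (18030 protein coding). The family itself was chosen with these read counts known, after Hox counts had been seen to be high in a CDD brain, so their levels are given as a description, without a test. Other Hox genes were not analysed here.

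All samples were whole brains of wild-type embryos at E14.5, mid-gestation, whose mothers ate a choline deficient diet (CDD, 4 brains, given from the mating day) or normal chow (ND, 4 brains). The comparison asks what a lack of choline in the mother does to gene expression in the embryonic brain. How many dams or litters gave the embryos is not stated and the labels name no batch, so p-values measure the spread between these brains only. Libraries held 31770217 to 43121170 gene counts, all pairs of brains of a diet differed beyond sampling noise (chi-square divided by its degrees of freedom, 3.76 to 22.5), and 1 library, CDD replicate 2, stood apart in its Hox counts.

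Nearly all Hox transcripts were found in CDD replicate 2. Of 5250 Hox counts over the 8 brains, 4984 (94.93%) were in that brain, and 21 of the 28 genes had their highest count there. Levels are given as raw counts, as CPM (counts per 1000000 counts of the library) or, to compare genes with each other, as the deposited FPKM, which also divides by gene length. The summed Hox level was 142.5 CPM in CDD replicate 2 (95% Poisson interval 138.6 to 146.6), 3.42 in CDD replicate 1 (2.82 to 4.12), and 0.533 and 0.583 in CDD replicates 3 and 4. The ND brains, replicates 1 to 4, were at 0.474, 0.598, 1.42 and 0.786 CPM. CDD replicate 2 was 41.6 times the next brain, CDD replicate 1 (95% interval 34.5 to 50.7), and CDD replicate 1 was 2.40 times the highest ND brain, ND replicate 3 (1.70 to 3.44). The diets overlapped, because CDD replicates 3 and 4 lay among the ND brains. CDD brains averaged 36.8 ± 70.5 CPM (SD, n = 4), or 1.51 ± 1.66 CPM (SD, n = 3) when CDD replicate 2 was left out, and ND brains averaged 0.821 ± 0.422 CPM (SD, n = 4). All intervals cover counting error only, and reads copied by PCR are not independent molecules. In bulk RNA, more cells that transcribe a gene and more RNA per cell cannot be told apart.

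**Figure D1:**
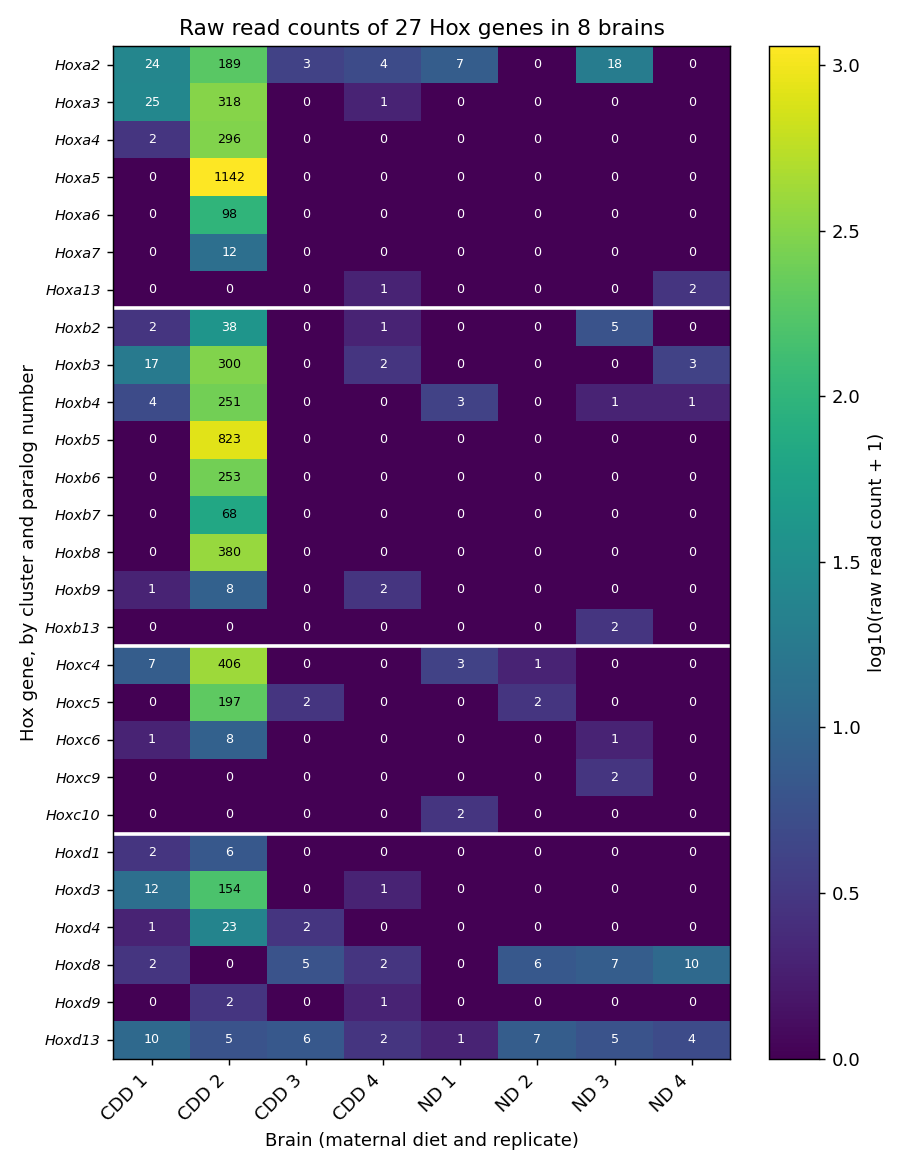
Raw read counts of Hox genes (rows, by cluster and paralog number) in the 8 brains (columns), with colour on a log10(count + 1) scale and the count printed in each cell. The column of CDD replicate 2 is filled from *Hoxa2* to *Hoxa7*, from *Hoxb2* to *Hoxb8*, at *Hoxc4* and *Hoxc5* and at *Hoxd3* and *Hoxd4*, while no other column exceeds 25 counts.

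**Figure D2:**
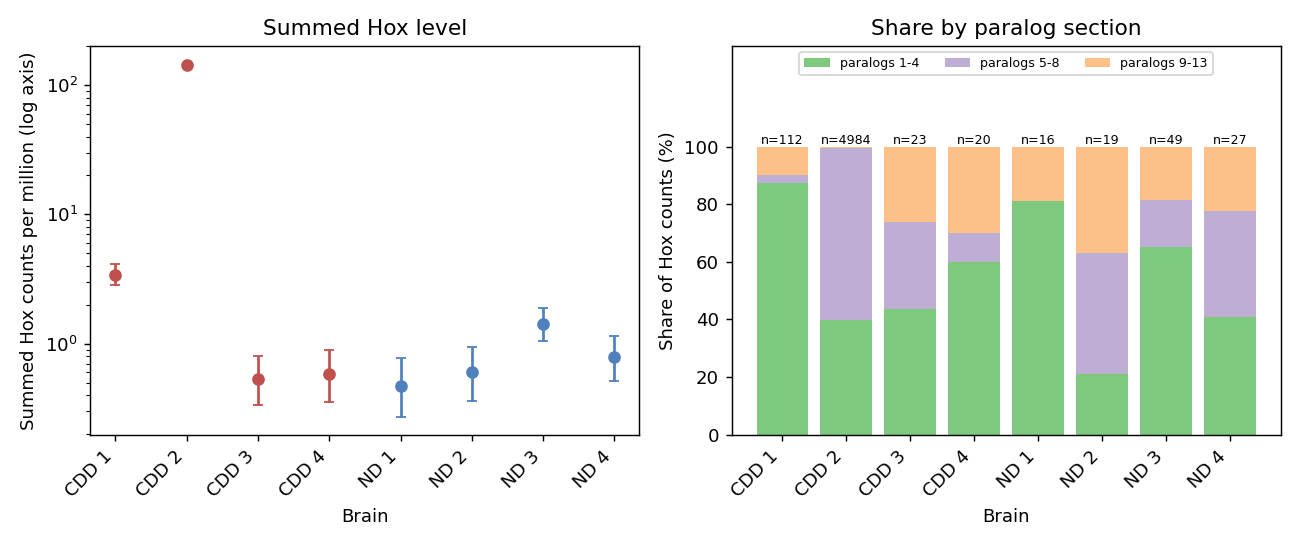
Left, summed Hox CPM per brain on a log axis, with bars for the 95% Poisson interval of the count (red, CDD; blue, ND). Right, the share of each brain's Hox counts (%) that fell on paralog groups 1 to 4, 5 to 8 and 9 to 13, with the number of Hox counts above each bar: CDD replicate 2 is at 142.5 CPM with 59.8% in groups 5 to 8, and CDD replicate 1 at 3.42 CPM with 87.5% in groups 1 to 4.

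To show the regulatory sequence of the genes that carried these counts, the 250 bases before the transcription start are printed for the gene of each cluster with the highest FPKM in CDD replicate 2 among the 15 members with an entry in RefSeq (build GRCm38.p6, 5′ to 3′ on the strand of the gene). Capitals mark matches, on either strand, to a Meis-type site (TGACAG), a Pbx-Hox-type site (TGATNNAT), a Cdx-type site (TTTATNG) or a retinoic acid receptor half-site (AGGTCA). The 4 motifs did not overlap each other in these windows.
*Hoxa5*, chr6:52204588-52204837, minus strand: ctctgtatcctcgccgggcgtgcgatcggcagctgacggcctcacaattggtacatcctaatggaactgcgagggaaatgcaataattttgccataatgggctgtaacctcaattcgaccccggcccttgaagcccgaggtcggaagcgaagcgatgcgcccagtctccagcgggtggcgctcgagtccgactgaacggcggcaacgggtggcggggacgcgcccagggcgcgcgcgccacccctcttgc
*Hoxb8*, chr11:96281655-96281904, plus strand: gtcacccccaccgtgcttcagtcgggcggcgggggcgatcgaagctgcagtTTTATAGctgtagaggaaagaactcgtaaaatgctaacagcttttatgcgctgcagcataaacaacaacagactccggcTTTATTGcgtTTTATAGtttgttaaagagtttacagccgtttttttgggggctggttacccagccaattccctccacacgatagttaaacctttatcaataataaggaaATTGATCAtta
*Hoxc4*, chr15:103034145-103034394, plus strand: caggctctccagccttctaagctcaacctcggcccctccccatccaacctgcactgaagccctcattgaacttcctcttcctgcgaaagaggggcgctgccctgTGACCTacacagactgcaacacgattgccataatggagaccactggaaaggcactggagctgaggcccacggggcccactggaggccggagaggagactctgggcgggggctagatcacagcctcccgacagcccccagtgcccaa
*Hoxd3*, chr2:74711743-74711992, plus strand: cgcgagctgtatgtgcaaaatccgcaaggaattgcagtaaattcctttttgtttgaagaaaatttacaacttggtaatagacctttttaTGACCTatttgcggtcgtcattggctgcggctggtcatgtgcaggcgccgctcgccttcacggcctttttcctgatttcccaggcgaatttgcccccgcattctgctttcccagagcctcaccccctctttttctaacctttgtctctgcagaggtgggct

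The *Hoxb8* window, 44.4% GC, held 3 Cdx-type matches and 1 Pbx-Hox-type match, the *Hoxc4* and *Hoxd3* windows held 1 half-site each, and the *Hoxa5* window, 63.6% GC, held no match. Over the 15 Hox genes with an entry, the half-site was found before 5 (*Hoxb4*, *Hoxc4*, *Hoxd3*, *Hoxd4* and *Hoxd8*), the Cdx-type site before 2 (*Hoxb8* and *Hoxd4*), the Meis-type site before 2 (*Hoxa2* and *Hoxa3*) and the Pbx-Hox-type site before 2 (*Hoxa2* and *Hoxb8*). Of all 32851 promoter windows of the same length, 14.0% held the half-site, 9.81% the Cdx-type, 15.9% the Meis-type and 7.68% the Pbx-Hox-type site. These are matches of letters, and binding was not measured.

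Paralog group 5 led the profile of CDD replicate 2. *Hoxa5* (ENSMUSG00000038253, chromosome 6, 52178734 to 52181567 as the authors list it, on a build that is not named), a gene of caudal hindbrain, neck and upper trunk, had 1142 counts in CDD replicate 2 and 0 in the 7 other brains. Against the 3 counts that a 0 allows in each of those libraries, it was at least 345.9-fold higher. *Hoxb5* (ENSMUSG00000038700, chromosome 11, 96194162 to 96196947) had 823 counts there and 0 in the others, at least 249.3-fold higher. On the FPKM scale *Hoxa5* was at 17.6 and *Hoxb5* at 8.53 in that brain, the highest levels of their clusters, whereas *Hoxc5* was at 1.84, below *Hoxc4* at 4.57. *Hoxc5* had 197 counts in CDD replicate 2, 2 each in CDD replicate 3 and ND replicate 2, and 0 in the other brains. Together the 3 genes of group 5 took 43.4% of the Hox counts of that brain.

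The same presence in a single brain held for more caudal genes, up to an end in each cluster. *Hoxb8* (chromosome 11, 96172731 to 96176141) had 380 counts in CDD replicate 2, *Hoxb6* 253, *Hoxa6* 98, *Hoxb7* 68 and *Hoxa7* 12, and all were at 0 in the 7 other brains, so that 7 of the 28 members were found in that brain alone. These 7 were at least 115.1-fold higher there for *Hoxb8*, 76.6-fold for *Hoxb6*, 29.7-fold for *Hoxa6*, 20.6-fold for *Hoxb7* and 3.64-fold for *Hoxa7*, beside *Hoxa5* and *Hoxb5* above. Per gene length, the level dropped 26.9 times from *Hoxa6* to *Hoxa7* (3.24 to 0.121 FPKM), 46.4 times from *Hoxb8* to *Hoxb9* (4.16 to 0.0897 FPKM) and 19.2 times from *Hoxc5* to *Hoxc6* (1.84 to 0.0959 FPKM). In the *Hoxd* cluster the level dropped 4.71 times from *Hoxd3* to *Hoxd4* (1.06 to 0.225 FPKM), and no ratio could be formed for the next step, where the counts ended. The last gene above 10 counts there was *Hoxd4* with 23, followed by *Hoxd8* with 0. By the listed coordinates *Hoxa4*, *Hoxa5* and *Hoxa6* lie within *Hoxa3*, *Hoxc5* overlaps *Hoxc6*, and *Hoxd3* overlaps *Hoxd4*. Counts of these genes may be shared or lost, also at the steps above. The levels did not fall evenly toward these ends: *Hoxb7*, at 1.27 FPKM, lay below both neighbours, *Hoxb6* at 3.72 and *Hoxb8* at 4.16.

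Anterior genes were also highest in CDD replicate 2. *Hoxa2*, which patterns the second pharyngeal arch and the anterior hindbrain, had 189 counts there, 24, 3 and 4 in CDD replicates 1, 3 and 4, and 7, 0, 18 and 0 in ND replicates 1 to 4. *Hoxa3*, a gene of the more caudal arches and of caudal hindbrain, had 25, 318, 0 and 1 counts in CDD replicates 1 to 4 and 0 in all ND brains. *Hoxb3* had 300 and 17 counts in CDD replicates 2 and 1, 2 in CDD replicate 4, 3 in ND replicate 4 and 0 in the rest. *Hoxd3* had 154 and 12 counts in CDD replicates 2 and 1, 1 in CDD replicate 4 and 0 in all ND brains. In all 4 genes CDD replicate 2 was highest and CDD replicate 1 second.

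In group 4, *Hoxc4* (chromosome 15, 102927366 to 102945278) had 406 counts in CDD replicate 2, 7 in CDD replicate 1, 3 in ND replicate 1, 1 in ND replicate 2 and 0 elsewhere. *Hoxa4* had 296 and 2 counts in CDD replicates 2 and 1 and none elsewhere. *Hoxb4* had 251 and 4 in these brains, 3 in ND replicate 1 and 1 each in ND replicates 3 and 4. *Hoxd4* had 1, 23, 2 and 0 counts in CDD replicates 1 to 4 and 0 in ND brains. *Hoxb2*, of group 2, had 2, 38, 0 and 1 counts in CDD replicates 1 to 4, 5 in ND replicate 3 and 0 in the other ND brains. The *Hoxa* and *Hoxb* clusters held 41.4% and 42.6% of the Hox counts of CDD replicate 2, *Hoxc* 12.3% and *Hoxd* 3.81%.

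**Figure D3:**
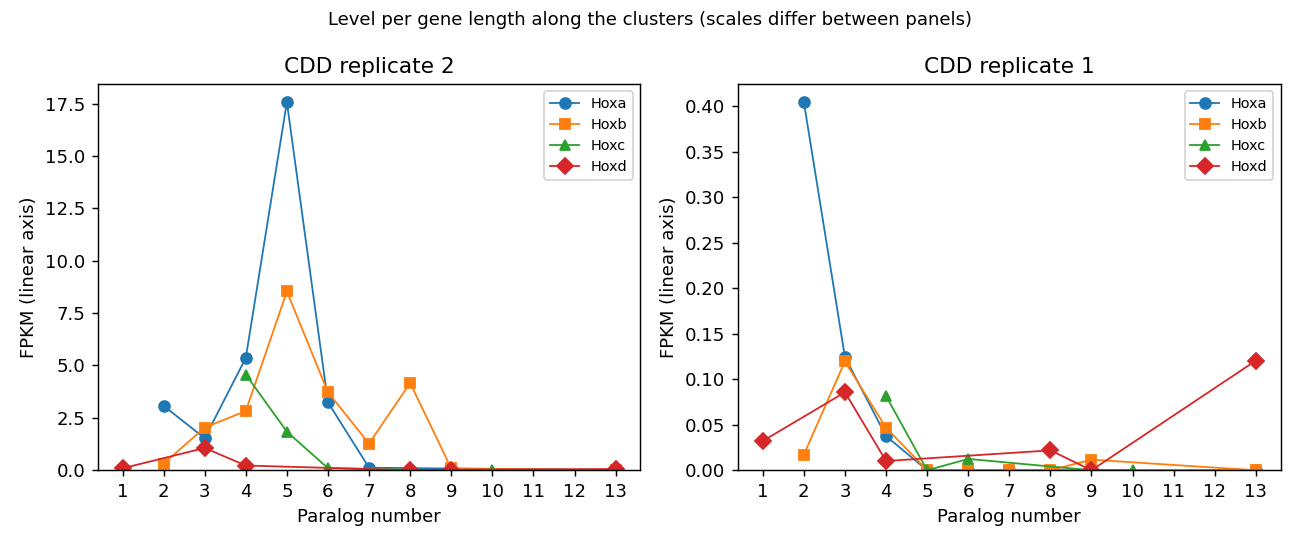
FPKM (linear axis, different scales in the 2 panels) against paralog number for the members of each cluster in CDD replicate 2 (left) and CDD replicate 1 (right), with lines joining members of a cluster. In CDD replicate 2 *Hoxa5* reaches 17.6 and *Hoxb5* 8.53 FPKM, and in CDD replicate 1 *Hoxa2* leads at 0.404 FPKM and the group 5 genes are at 0.

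CDD replicate 1 had a different profile. Its 112 Hox counts (95% Poisson interval 92.2 to 134.8) were in 15 genes, and 98 of them, 87.5% (exact binomial interval 79.9 to 93.0%), fell on paralog groups 1 to 4. Groups 5 to 8 held 3 counts, 2.68% (0.556 to 7.63%), whereas they held 2981 counts, 59.8% (58.4 to 61.2%), in CDD replicate 2. Within groups 1 to 4, group 3 took 54 counts, group 2 took 26 and group 4 took 14 in CDD replicate 1. In CDD replicate 2 the order differed, with 976 counts in group 4, 772 in group 3 and 227 in group 2. The mean paralog number, weighted by counts per kb of gene, was 3.92 in CDD replicate 1 and 4.84 in CDD replicate 2. For CDD replicate 1 this mean rested in part on 10 counts of *Hoxd13*, and it was 2.77 without the *Hoxd* cluster and 5.64 without the *Hoxa* cluster.

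The ratio of CPM between these 2 brains was larger in each successive paralog group from 2 to 5. CDD replicate 2 was 8.17 times CDD replicate 1 in group 2 (95% interval 5.43 to 12.8), 13.4 times in group 3 (10.1 to 18.0) and 65.2 times in group 4 (38.7 to 119.7). In group 5 it was at least 674.1-fold higher, and in groups 6 and 8, with 1 and 2 counts in CDD replicate 1, the ratios were 335.8 (59.9 to 13300) and 177.7 (48.9 to 1473). Neither is the ratio of a single gene. The counts of CDD replicate 1 were of *Hoxc6* in group 6 and of *Hoxd8* in group 8. Those of CDD replicate 2 were mostly of *Hoxb6* and *Hoxa6* in group 6 and all of *Hoxb8* in group 8. For groups 6 to 8 the order could not be read, because groups 5 and 7 have lower bounds only and the intervals of groups 6 and 8 are wide. Group 7, with CDD replicate 1 at 0, was at least 24.9-fold higher. Group 9, with 1 count in CDD replicate 1, had a ratio of 9.36 (1.33 to 406.0), below the bound of group 5. The ratio was 7.37 for *Hoxa2* (4.80 to 11.8), 11.9 for *Hoxa3* (7.91 to 18.7), 12.0 for *Hoxd3* (6.68 to 23.7), 16.5 for *Hoxb3* (10.1 to 28.7), 54.3 for *Hoxc4* (26.1 to 135.8) and 58.7 for *Hoxb4* (22.6 to 217.1). The intervals of groups 2 and 3 overlapped, and that of group 4 lay above both. This compares 2 libraries, and not the diets.

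**Figure D4:**
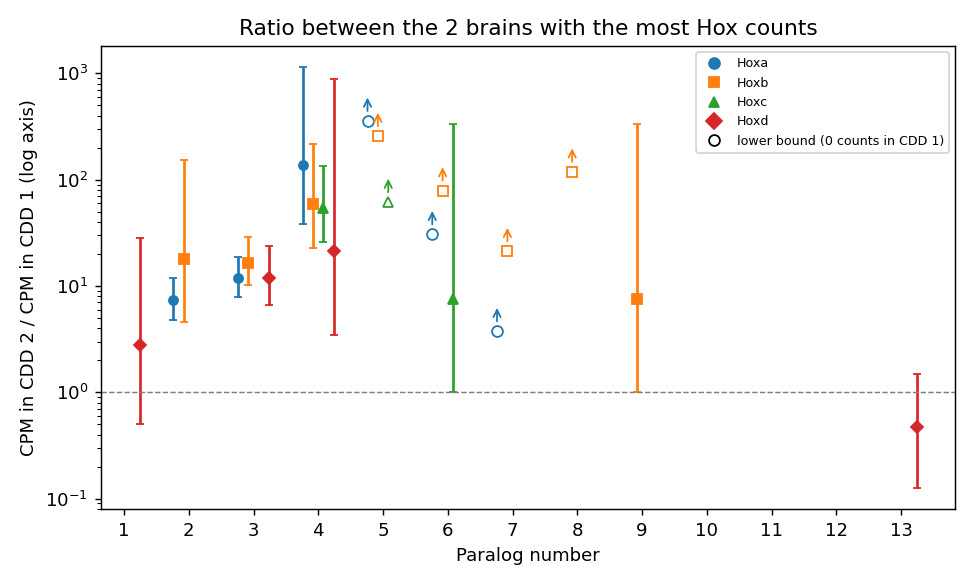
CPM in CDD replicate 2 divided by CPM in CDD replicate 1 (log axis) for each Hox gene with counts in both, by paralog number and cluster, with 95% exact intervals for counting error. Open symbols with arrows are lower bounds for genes at 0 in CDD replicate 1. The ratio is 7.37 at *Hoxa2*, between 11.9 and 16.5 at the group 3 genes, and at least 356.1 at *Hoxa5*. *Hoxd13* lies below 1, at 0.468.

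The other 6 brains held 154 Hox counts in all, between 16 and 49 each. Of these, 55 (35.7%) were of *Hoxd8* and *Hoxd13*, and 32 were of *Hoxa2*. The 8 members of groups 5 to 7 had 5 counts in these 6 brains together. *Hoxd13*, a gene of the distal limb and tail end, was the single member with counts in all 8 brains, at 10, 5, 6 and 2 counts in CDD replicates 1 to 4 and 1, 7, 5 and 4 in ND replicates 1 to 4. *Hoxd8* had 2, 0, 5 and 2 counts in the CDD brains and 0, 6, 7 and 10 in the ND brains. These genes did not follow the rest: CDD replicate 2 was within the range of the other brains for *Hoxd13* and shared the lowest value, 0, for *Hoxd8*.

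ND replicate 3 had the most Hox counts among the ND brains, 49, of which 18 were of *Hoxa2* and 5 of *Hoxb2*. In the ND brains 14 of the 28 members were at 0 throughout, and *Hoxa2*, *Hoxb2*, *Hoxd8* and *Hoxd13* were among those that exceeded 3 counts in an ND brain. The members under 10 counts in every brain included *Hoxa13*, *Hoxb9*, *Hoxb13*, *Hoxc6*, *Hoxc9*, *Hoxc10*, *Hoxd1* and *Hoxd9*. Of these, *Hoxb9* and *Hoxc6* had 8 counts each *Hoxd1* had 6 and *Hoxd9* had 2 in CDD replicate 2, and *Hoxa13*, *Hoxb13*, *Hoxc9* and *Hoxc10* had 0 there and at most 2 in any brain.

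Transcripts lying between the outermost Hox genes of each cluster, most of them non-coding, followed the same brain. Summed over all 16 such rows, CDD replicate 2 held 551 counts and the other brains 9 to 57. Of the 16, 12 reached 10 counts in some brain and 11 of those were highest in CDD replicate 2. Only *Hoxaas2*, *5730596B20Rik* and *Gm11539* reached 10 counts in any other brain, so the 11 follow largely from that threshold. *Haglr*, which overlaps the end of *Hoxd3* on the opposite strand (chromosome 2, 74578766 to 74593240), had 118 counts in CDD replicate 2 and 0 in the 7 other brains. *Hoxaas2*, antisense to *Hoxa3*, had 26, 116, 0 and 1 counts in CDD replicates 1 to 4 and 0, 2, 3 and 2 in ND replicates 1 to 4. *Hoxaas3*, which overlaps *Hoxa3* to *Hoxa7* on the opposite strand, had 34 counts in CDD replicate 2 alone, and *Hoxb5os* had 13. The remaining rows with at least 10 counts were *5730596B20Rik* (102 in CDD replicate 2 and 11 in CDD replicate 1), *Gm11536* (45 and 2), *Gm15050* (38 and 3), *Hoxb3os* (22 and 9), *Hotairm1* (20 and 1), an RNA without a gene symbol (13 and 1) and *Gm29430* (10 and 0). The pseudogene *Gm11539* was the exception, with 6 counts in CDD replicate 2 and 11 each in CDD replicate 3 and ND replicate 3. Whether counting used strand is not given in the sources used here, and 10 of the 28 Hox genes overlap another Hox gene in the listed coordinates, so counts may be shared or lost between neighbours.

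The fit across all genes did not reach the Hox genes. With low counts filtered (filterByExpr), 0 of the 28 members were among the 19367 genes tested with edgeR's quasi-likelihood test, of which 1710 (8.83%) passed an adjusted p-value of 0.05 between the diets, 822 higher (4.24%) and 888 lower (4.59%) in CDD brains. Without the filter, 33971 genes were tested and 6.99% were called, among them 2 of the 28 Hox genes (4 at an unadjusted p under 0.05). These 2 calls of edgeR without the filter were *Hoxa7* and *Hoxd4*, named after their values were seen, with 12 of 12 and 23 of 26 counts in CDD replicate 2, whereas *Hoxa5* and *Hoxb5* were not called. DESeq2, which called 2151 genes in all, called 0 of the 28 (2 at an unadjusted p under 0.05) and gave no adjusted p-value for 27. The contrast is the one that drew attention to the family, and nothing is read from these counts. Without CDD replicate 2, 7.14% of 19663 genes were called and again 0 Hox genes were tested.

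Of a list of 16 genes of hindbrain and spinal cord neurons, drawn up with earlier results of these data known, 12 were highest in CDD replicate 2. Among those tested, 10 of 14 (71.4%) were highest there, beside 1939 of all 19367 genes tested. *Slc6a5*, the glycine transporter of inhibitory neurons, was at 3.21, 14.47, 0.904 and 1.49 CPM in CDD replicates 1 to 4 and at 1.87, 2.14, 2.70 and 1.40 in ND replicates 1 to 4. *Lbx1*, a factor of dorsal hindbrain and spinal interneurons, was at 2.45, 8.44, 0.441 and 0.583 CPM in CDD and at 1.04, 0.409, 0.698 and 0.583 in ND brains. For both genes CDD replicate 2 was highest and CDD replicate 1 second, as in the summed Hox counts. CDD replicate 1 was highest of the 7 remaining brains in 9 of the 16 genes, a count not set beside its share over all genes.

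Other genes of the list covered a wide range of levels. *Mnx1*, which marks spinal motor neurons, was at 0.200 CPM (7 counts) in CDD replicate 2, at 0.0315 in ND replicate 2 and at 0 in the other 6 brains. *Lhx3* was at 1.43 CPM in CDD replicate 2 and at most 0.350 in the others. *Prph*, an intermediate filament of neurons with peripheral axons, was at 17.3 CPM there against 2.83 to 4.59. *Slc5a7* and *Slc18a3*, transporters of cholinergic neurons, were at 6.41 and 5.43 CPM there and at most 4.43 and 2.09 in the others, and *Phox2a* was at 1.40 against at most 0.554. *Evx1* and *Evx2*, which lie beside the *Hoxa* and *Hoxd* clusters and are made in spinal interneurons, were at 3.03 and 6.15 CPM in CDD replicate 2, against 1.13 to 1.86 and 2.83 to 4.65 in the others. *Isl1*, *Chat*, *Dbx1* and *Sox14* were not highest in CDD replicate 2, and *Isl1* was lowest there, at 39.8 CPM.

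Between the diets, edgeR called 0 of the 14 tested genes of this list (3 at an unadjusted p under 0.05), where it called 8.83% of all genes tested. DESeq2 called 2 of the list and 2151 genes in all. The median log2 fold change (CDD over ND) was 0.49, beside -0.0038 for all genes tested. For *Evx1* it was 0.71 ± 0.23 (standard error), which did not pass (edgeR, adjusted p = 0.0548). Without CDD replicate 2, edgeR called *Lmx1b* (log2 fold change 0.41, adjusted p = 0.0218), a factor of dorsal and serotonergic neurons, and *Tlx3* (-1.02, adjusted p = 0.0179), a factor of dorsal excitatory neurons. *Lbx1* had a log2 fold change of 2.12 with a standard error of 1.10 and did not pass (edgeR, adjusted p = 0.311).

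**Figure D5:**
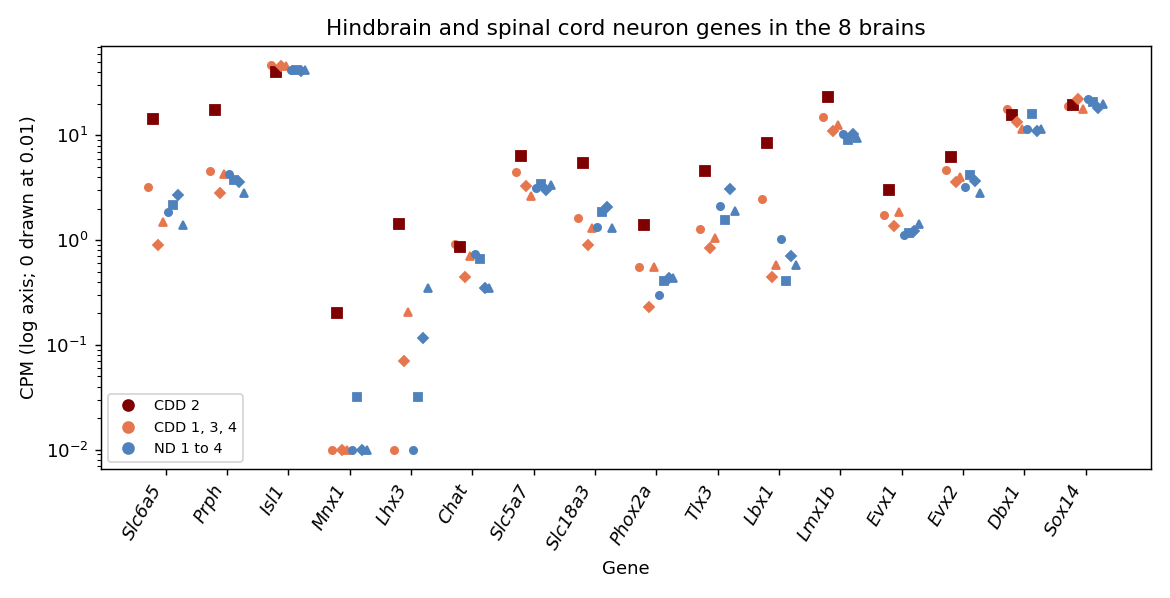
CPM (log axis, 0 drawn at 0.01) of 16 genes of hindbrain and spinal cord neurons in each brain. Dark red is CDD replicate 2, orange the other CDD brains and blue the ND brains, with circles, squares, diamonds and triangles for replicates 1 to 4. CDD replicate 2 is the highest point for 12 genes and lies at 14.47 CPM for *Slc6a5*, where the other brains are at 0.904 to 3.21.

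The genes outside the family whose pattern was most like that of the Hox genes were sought by the ratio of CPM in CDD replicate 2 to the highest of the 7 other brains, among 12423 protein-coding genes with at least 100 counts in that brain. Only 12 genes (0.0966%) reached a ratio of 2. The first was *Tbx20*, a T-box gene of hindbrain motor neurons and heart, at 3.15 CPM against 0.126 to 0.489 (ratio 6.43), followed by *Slc6a5* (4.51), *Lamp5* (4.48), *Pax2* (4.11), *Prph* (3.78), *Pax8* (3.55) and *Lbx1* (3.45). *Pax2*, a paired-box gene of inhibitory interneurons and of the midbrain-hindbrain border, was at 19.9 CPM in CDD replicate 2 and at 1.69 to 4.83 in the other brains. The rest of the first 15 were *Slc18a3*, *Mab21l2*, *Nkx6-1*, *Prrxl1*, *Sncg*, *Mafa*, *Gpr157* and *Arhgap36*, with ratios of 2.60 down to 1.67. In 7 of these 15 genes CDD replicate 1 was second, which was likewise not set beside all genes. None of the 15 was called between the diets by edgeR (adjusted p = 0.268 to 0.877), where 8.83% of all genes tested were. The ranking picks genes that set 1 CDD brain apart from the other CDD brains too, so nothing is read from this. All 15 had counts in each of the 7 other brains.

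Hox proteins bind DNA with Pbx, Meis and Pknox partners, which are also made in the forebrain, and all 8 genes of this list were tested. *Pbx2* rose in CDD brains, from 73.7 ± 2.35 to 81.6 ± 5.30 CPM (SD, n = 4 each; log2 fold change 0.17, standard error 0.045, adjusted p = 0.0248 with edgeR), and was still called without CDD replicate 2 but not without CDD replicate 1 or ND replicate 1, 3 or 4. None of the other 7 was called in either direction, where 8.83% of all genes tested were. Of the 8, 5 were highest in CDD replicate 2, beside 1939 of all 19367 genes tested. For *Meis1* that brain was at 50.3 CPM and the others at 26.1 to 33.8. The log2 fold change of *Meis1* between the diets was 0.31 (edgeR, adjusted p = 0.463). The rest lay close to the next brain. CDD replicate 2 was 1.12 times the highest other brain for *Pbx3* and 1.04 times for *Pknox1*, *Meis2* and *Pknox2*. *Pbx3* and *Pknox2* had log2 fold changes of 0.12 and 0.11.

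Of the genes that set or limit Hox expression through retinoic acid, caudal homeobox and hindbrain factors, 9 were found and 4 were tested. Of the 4, edgeR called 1, beside 8.83% of all genes tested. *Aldh1a2*, which makes retinoic acid and in the embryonic brain is best known from the meninges, fell by 0.50 on the log2 scale (standard error 0.10, adjusted p = 0.00507 with edgeR), from 11.3 ± 1.11 CPM in ND to 7.87 ± 1.12 CPM in CDD brains (SD, n = 4 per diet), and the 2 diets did not overlap. Its call held with each of the 8 brains left out in turn. *Cyp26b1*, a retinoic acid hydroxylase, was at 85.2 CPM in CDD replicate 2 and at 36.1 to 65.0 in the other brains (log2 fold change 0.09, adjusted p = 0.881 with edgeR). The log2 fold change was 0.15 for *Gdf11* (edgeR, adjusted p = 0.0785) and -0.06 for *Rarb*. CDD replicate 2 had the lowest *Rarb* level of all, 3.95 CPM, while every other brain lay between 5.13 and 7.08 CPM. *Cdx1* was at 0 counts in the CDD brains and at 2, 0, 2 and 0 in ND replicates 1 to 4, within what a 0 allows, and *Egr2*, at 0.0592 to 0.458 CPM, was highest in CDD replicate 2. *Cdx2* and *Cdx4* were not analysed here.

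Polycomb genes, which keep Hox clusters silent, and Trithorax genes, which keep them active, were tested in a list of 20. *Suz12* rose by 0.20 (standard error 0.050, adjusted p = 0.0166 with edgeR) and *Ezh2* by 0.15 (standard error 0.046, adjusted p = 0.0454), whereas *Phc2*, at 0.13 on that scale, did not pass (adjusted p = 0.0568). The 2 calls of 20 stand beside 8.83% of all genes tested, the median log2 fold change was 0.07, and 1 of the 20 was highest in CDD replicate 2. Both calls were lost without ND replicate 1, 3 or 4, and that of *Ezh2* also without CDD replicate 1, 3 or 4.

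The labelled tissue was checked with 17 genes of forebrain, midbrain and isthmus. Hox genes are silent in forebrain and midbrain, but the list is not confined to these regions, because *Gbx2* is also made in the anterior hindbrain. All were present in every brain, and *Lhx2*, a factor of cortical progenitors, was at 231.8, 212.0, 235.9 and 223.7 CPM in CDD replicates 1 to 4 and at 199.1 to 229.8 CPM in ND brains. CDD replicate 2 was the lowest of the 8 brains for *Fezf2* (57.4 against 64.5 to 81.8 CPM) and *Tbr1* (189.1 against 200.1 to 236.8). It was also lowest for *Dlx1* (78.9 against 89.4 to 95.3) and *Dlx2* (79.3 against 82.3 to 98.9). Highest there were 2 of the 17, *Gbx2* and *Pax8*, the latter at 5.38 against 0.757 to 1.515 CPM. Of the 17, 5 rose in CDD brains and 0 fell, beside 4.24% higher and 4.59% lower of all genes tested. These were *Gbx2* (log2 fold change 0.45), *Emx2* (0.26), *Nkx2-1* (0.24), *Otx1* (0.23) and *Otx2* (0.20), with adjusted p-values of 0.0184 to 0.0499 from edgeR, and 0 of the 17 were called without ND replicate 1, 3 or 4. *Gbx2*, a gene of the anterior hindbrain and isthmus, was highest in CDD replicate 2, at 13.9 against 6.86 to 9.99 CPM, and its call was lost without that brain (edgeR, adjusted p = 0.0814). Over the 8 fits that left out 1 brain each, *Nkx2-1* was called in 5, *Gbx2* and *Otx2* in 4 each, and *Emx2* and *Otx1* in 2 each. Without CDD replicate 1, 2 of the 17 were called. *Otx2*, which marks forebrain and midbrain down to the isthmus, was at 49.3 to 55.4 CPM in CDD and 43.2 to 49.7 CPM in ND brains.

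Hox genes are also transcribed outside the nervous system, and markers of other caudal tissues were read beside them. In a list of 13 somite, muscle and cartilage genes the sum was 125.8 to 147.9 CPM in CDD and 112.4 to 137.8 CPM in ND brains, most of it *Col2a1* (90.9 to 124.7 CPM), followed by *Tbx18* (9.73 to 12.9 CPM) and *Pax3* (6.26 to 9.50 CPM). Of the 7 tested, 2 were highest in CDD replicate 2, *Pax3* at 9.50 against at most 9.02 CPM and *Myh3*, an embryonic muscle myosin, at 1.06 against 0.291 to 0.764 CPM, while *Myod1*, *Myog* and *Pax1* were at no more than 0.117 CPM in any brain. *Col2a1*, which neural progenitors and cartilage both make, rose by 0.22 (adjusted p = 0.0313 with edgeR), the single call among the 7, beside 8.83% of all genes tested. It was lost without CDD replicate 2 (adjusted p = 0.0530 with edgeR) and without CDD replicate 1 or 4 or ND replicate 1, 3 or 4. *Tbx18* and *Pax3* had log2 fold changes of -0.23 and 0.24. In a list of 11 genes of sensory ganglia and their glia, 0 of 10 tested were called by edgeR, beside 8.83% of all genes tested. The sum of this list was 331.8 to 388.6 CPM in CDD and 360.0 to 374.2 CPM in ND brains. Most of it was *Fabp7* (271.8 to 317.9 CPM), which radial glia of the brain also make. Highest in CDD replicate 2 were *Pou4f1*, a sensory neuron factor also made in the midbrain, at 52.4 against 30.8 to 41.1 CPM, *Foxd3*, a neural crest factor, at 1.86 against 0.533 to 1.46 CPM, and *Runx1*. Of the 10, 1 had an unadjusted p under 0.05, and DESeq2 called 1 of the list, beside 2151 genes in all. The log2 fold change was -0.66 for *Sox10* (edgeR, adjusted p = 0.0644), 0.28 for *Pou4f1* and -0.04 for *Fabp7*. Of 8 epidermal genes 4 were tested, and *Krt1* fell by 0.53 (adjusted p = 0.00831 with edgeR). It was the single call among the 4, beside 8.83% of all genes tested. *Krt10* and *Dsp* had log2 fold changes of -0.22 and 0.14. *Krt5* and *Krt14* were at no more than 0.233 CPM in any brain, and 0 of the 4 were highest in CDD replicate 2. The part of these tissues in the Hox counts, and that of the extent of dissection, was not tested.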

How the data were processed

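Whole-brain poly(A) RNA of 8 E14.5 embryos was sequenced. The authors deposited a single table of the 8 brains that holds raw read counts per gene, size-factor-scaled counts (a signal) and FPKM. Per the submitters' processing notes, HISAT2 2.0.5, featureCounts 1.5.0-p3 and DESeq2 1.20.0 were used. The genome build, annotation and strand setting are not given in the sources used here. The table also holds the authors' own log2 fold changes, p-values and adjusted p-values, which were not used, nor were the scaled counts.

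CPM was computed from raw counts and library totals (31770217 to 43121170). Counts carry exact 95% Poisson intervals, shares exact binomial intervals (Clopper-Pearson), and ratios intervals from the binomial split of 2 counts. A count of 0 was taken to allow 3 counts per library. The members and lists were chosen with earlier results of these data known, so nothing is read from tests of the Hox genes. The fit across all genes used edgeR's quasi-likelihood test (TMM, filterByExpr, diet as the single factor, all 8 brains), with Benjamini-Hochberg adjustment over all tested genes and a threshold of 0.05. It was tested on simulated counts. Every Hox gene with at least 10 counts in a brain was named with its values, and from lists other than that of caudal neurons the 3 genes with the smallest p and any past the threshold. Further genes of those lists were named for their rank in CDD replicate 2 or for their level, after their values were seen. Like genes were the first 15 by CPM in CDD replicate 2 over the highest other brain. *Cdx2*, *Cdx4* and *Pax9* were not analysed here. Some genes of the family and of the lists are not reported here, and the counts of the lists and of like genes leave them out. Alternatives were DESeq2, RLE normalization, other filters on low counts, a replicate block, and leaving out each brain. Fits ran in R 4.3.3 with edgeR 4.0.16 and DESeq2 1.42.0. Sums and intervals were made with SciPy 1.17.1, pandas 2.3.3 and NumPy 2.4.6 under Python 3.11.15, and plots with matplotlib 3.10.9.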

Additional observations from a re-analysis of the deposited data

Results flagged for a closer look

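In 35 of 100 groups of 4 brains examined, the highest or lowest brain lay so far from the rest that its gap to the nearest, as a share of the range of the group, exceeded the 95% critical value of Dixon's test. Chance gives this in about 1 in 20 groups of values chosen without regard to them. The Hox genes and the genes most like them were chosen for their level in CDD replicate 2, so how often that brain lay apart follows from the choice and is not set against chance. The summed Hox level of CDD replicate 2 was 142.5 CPM, as described above. Among single Hox genes it was highest of the CDD brains, in CPM, at 5.41 for *Hoxa2*, 9.1 for *Hoxa3*, 8.47 for *Hoxa4*, 32.7 for *Hoxa5*, 2.8 for *Hoxa6*, 0.343 for *Hoxa7*, 1.09 for *Hoxb2*, 8.58 for *Hoxb3*, 7.18 for *Hoxb4*, 23.5 for *Hoxb5*, 7.24 for *Hoxb6*, 1.95 for *Hoxb7*, 10.9 for *Hoxb8*, 11.6 for *Hoxc4*, 5.63 for *Hoxc5*, 4.41 for *Hoxd3* and 0.658 for *Hoxd4*.

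Among genes of hindbrain and spinal cord neurons, CDD replicate 2 lay above the other CDD brains at 14.47 for *Slc6a5*, 17.3 for *Prph*, 0.2002 for *Mnx1*, 1.43 for *Lhx3*, 5.43 for *Slc18a3* and 4.61 for *Tlx3* (CPM). The same held outside that list at 13.9 for *Gbx2*, 3.15 for *Tbx20*, 20.96 for *Lamp5*, 19.9 for *Pax2*, 5.38 for *Pax8*, 39.01 for *Mab21l2* and 11.3 for *Nkx6-1* (CPM).

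In the other 4 cases a different brain lay apart. ND replicate 3 was high for *Hoxb2*, at 0.145 CPM, or 5 counts. ND replicate 2 was high for *Dbx1*, at 16.1 CPM, and low for *Aldh1a2*, at 9.63 CPM. CDD replicate 4 was low for *Krt1*, at 3.93 CPM.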

How the results depend on the processing

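The Hox counts of a library have no replicate, so the limits here are the 4 brains per diet, the unknown number of dams and the 3 counts that a 0 allows. CDD replicate 2 over the next brain was 41.6 in CPM, 53.7 in summed FPKM and 54.1 without paralog groups 1 and 2. CDD replicate 1 over the highest ND brain went from 2.40 to 4.30 without those groups, and its mean paralog number from 3.92 to 5.64 without the *Hoxa* and 2.77 without the *Hoxd* cluster. Of the values under alternatives, 110 stayed within the spread or within 1.5 times of the count reported, and 38 moved. Called genes, 1710 of all tested, ranged from 471 (without ND replicate 3) to 2495 (without CDD replicate 3) with a brain left out, at 688 without ND replicate 1 and 615 without ND replicate 4. DESeq2 called 2151 genes in all. Without a filter on low counts 2 Hox genes were called.

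Called genes of hindbrain and spinal cord neurons, 0 in the report, numbered 2 with DESeq2, 2 without the filter, 1 with a replicate block and 0 to 3 with a brain left out. Genes upstream of Hox numbered 2 with DESeq2 (1 in the report), and sensory ganglion genes 1 with DESeq2, 2 without the filter and 0 to 1 with a brain left out (0 in the report). With a brain left out, called Hox cofactors ranged from 0 to 2, Polycomb and Trithorax genes from 0 to 2, rostral genes from 0 to 5, and somite, muscle and cartilage genes from 0 to 1. The cause of these moves was not tested. Same-numbered brains of the diets shared only a number, with correlations of their deviations of 0.104, -0.133, 0.117 and 0.232, and the replicate block gave 1812 called genes.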
